A study of Mus musculus with 4 samples.

Results

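The genes described here are 5 chemokines and 2 receptors of the CXC family: the neutrophil attractants Cxcl1, Cxcl2, Cxcl3 and Cxcl5 with their receptor Cxcr2, and Cxcl12 with its receptor Cxcr4. They were found by symbol, 7 of the 31053 genes counted, and all 7 had UMIs (unique molecular identifiers, each standing for 1 captured transcript). The 4 single-cell RNA libraries came from immune cells that had infiltrated brain tumours of symptomatic C57BL/6 mice, in a genetically engineered glioma model. IDH1 is a metabolic enzyme mutated in a class of gliomas. Tumours carried wild-type IDH1 (wtIDH1, 2 libraries) or mutant IDH1 (mIDH1, 2 libraries), and the labels name no other allele, no age, no treatment and no healthy brain sample. They do not say whether the 2 libraries of a genotype came from separate animals, so p-values measure only the spread between these libraries, which may be technical. Nor do they give the sort or gate by which immune cells were taken.

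CXC chemokines are small secreted proteins that draw leukocytes along a gradient by binding G protein-coupled receptors. CXCR2, borne mainly by neutrophils, binds CXCL1, CXCL2, CXCL3 and CXCL5, which myeloid, epithelial and stromal cells release under inflammatory stimuli such as interleukin-1 and bacterial products, largely through NF-kB. CXCL12, made by stromal and endothelial cells, acts on CXCR4, which helps keep neutrophils in the bone marrow, and the balance of CXCR4 and CXCR2 sets when they leave it.

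On mm10 the genes of the 4 CXCR2 ligands lie in 1 stretch of 147 kb on the plus strand of chromosome 5: Cxcl5 (ENSMUSG00000029371) at chr5:90759360-90761624, Cxcl3 (ENSMUSG00000029379) at chr5:90786103-90789600, Cxcl1 (ENSMUSG00000029380) at chr5:90891241-90893115 and Cxcl2 (ENSMUSG00000058427) at chr5:90903871-90905938. Cxcr2 (ENSMUSG00000026180, chr1:74153989-74161246, plus strand) and Cxcr4 (ENSMUSG00000045382, chr1:128588199-128592293, minus strand) are on chromosome 1, and Cxcl12 (ENSMUSG00000061353, chr6:117168535-117181367, plus strand) is on chromosome 6. Of the 7 genes, 6 matched an entry in the RefSeq promoter table (GRCm38.p6). The promoters of the 3 ligands read in the most cells are shown because NF-kB is the known inducer of these genes, and the longest run of letters that all 3 share, GGGAATTTCCC (11 letters), is of the kind that NF-kB binds. The windows below run 5′ to 3′ on the plus strand from base 110 to base 36 before the RefSeq start (chr5:90891135-90891209, chr5:90903789-90903863 and chr5:90785991-90786065), with the run in capitals.
Cxcl1: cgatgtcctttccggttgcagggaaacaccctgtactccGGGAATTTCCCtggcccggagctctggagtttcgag
Cxcl2: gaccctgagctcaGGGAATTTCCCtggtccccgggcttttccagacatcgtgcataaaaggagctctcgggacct
Cxcl3: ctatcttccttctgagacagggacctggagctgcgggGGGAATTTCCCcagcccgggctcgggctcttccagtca
The run starts 71 bases before the start of Cxcl1, 97 before that of Cxcl2 and 73 before that of Cxcl3. Searched on both strands over the 250 bases before the start, it occurs in 14 of 32851 promoters (0.0426%), these 3 among them by construction, and it was not found in those of Cxcl12, Cxcr2 and Cxcr4. A match describes these letters and is not evidence of binding.

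The libraries wtIDH1 replicate 1, wtIDH1 replicate 2, mIDH1 replicate 1 and mIDH1 replicate 2, the order used for every set of 4 values, held 20908476 to 29849183 UMIs in 3701 to 4708 barcodes. After filtering, 13197 of 16289 cells were kept, with medians of 4959, 4869, 3371 and 2700 UMIs. Of the kept cells, 111 carried a barcode that occurs in more than 1 library. The cells formed 19 clusters, built without the 7 genes. Neutrophil-like cells (clusters 7, 8 and 9, 3312 cells in all) made up 3.83, 6.91, 32.2 and 51.7% of the kept cells. All 14 neutrophil markers were detected in each library's neutrophil-like cells, and their summed level of 134745 UMIs per 1000000 (CPM) in mIDH1 replicate 2 stood apart from 44190 to 52977 in the other 3. Different clusters hold most of a class in the 2 genotypes: cluster 7 led among wtIDH1 neutrophil-like cells and cluster 8 among mIDH1 ones, while macrophage-like cells were mostly cluster 3 (Gpnmb, Apoe) in wtIDH1 and cluster 4 (Arg1, Ccl24) in mIDH1. Monocyte-like cells are cluster 0 (Vcan, Chil3). Cluster 2 had Cxcl9 and MHC class II genes in front and monocyte markers only further down, so it is given by number. Microglia-like cells are clusters 14 and 17. The tumour-like cluster (286 cells), named for Nes, Sox2 and Sox9, held Nes in 75.0 to 97.1%, Sox9 in 84.9 to 94.3% and Sox2 in 62.5, 85.7, 75.4 and 47.5% of cells. Gating on marker UMIs kept 110 of the 286, and Olig1, Olig2, Bcan and Fabp7 had 0 UMIs there.

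Cxcl2 was read above all in neutrophil-like cells, at 10224, 11255, 21868 and 33458 CPM, and its level was higher in both mIDH1 libraries than in either wtIDH1 library. Per cell that was 21.5, 18.8, 46.7 and 80.2 UMIs. The share of neutrophil-like cells with a Cxcl2 UMI was 88.0, 89.8, 94.6 and 97.7%, against 5.18, 3.37, 16.3 and 32.8% of T cell-like cells, a class that serves as the background of free RNA, whose cells were deeper (medians of 3933 to 5697 UMIs against 1543 to 2201). Thinning to 1000 UMIs per cell left out shallower cells and kept 111, 176, 1078 and 1714 neutrophil-like ones. The shares were then 83.8, 86.4, 93.8 and 95.9% of neutrophil-like cells and at most 8.73% of T cell-like ones. No other class reached this level in any library, and the same cells carried the receptor of this chemokine. Free RNA of other cells, sized on C1qa, C1qb, C1qc, Apoe and Ms4a7, would supply at most 1.92% of the Cxcl2 UMIs in neutrophil-like cells.

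Within the neutrophil-like class the 3 clusters were ordered alike in every library for Cxcl2 per cell at the top. Cluster 8, led by Hcar2, F3 and Ccl3, held 41.8, 36.3, 66.1 and 111 Cxcl2 UMIs per cell. In cluster 7, led by Mmp9, the values were 15.1, 13.9, 27.6 and 38.3 UMIs per cell. Cluster 9, which expresses the granule protein genes Ngp, Camp and Ltf of young neutrophils, held 8.45, 14.3, 32.8 and 54.4, in 20, 26, 191 and 593 cells. Cluster 8 was highest in all 4 libraries, whereas clusters 7 and 9 changed places, and in each cluster both mIDH1 libraries were above both wtIDH1 libraries. These values describe cells grouped by their own transcripts, so no test of one cluster against another is given.

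Other myeloid classes held less Cxcl2. Macrophage-like cells had 1041, 843, 1622 and 4089 CPM, cluster 2 had 1182, 1101, 1534 and 2044, and monocyte-like cells had 847, 828, 1089 and 2025. The ranges of these 3 classes over the 4 libraries overlapped. Macrophage-like cells are larger in RNA content, and per cell they carried 14.2, 11.4, 22.2 and 44.3 Cxcl2 UMIs. Mast cell or basophil-like cells (4, 1, 51 and 13 cells) had 5793 and 1731 CPM in the mIDH1 libraries, the only libraries with more than 4 of these cells. Tumour-like cells were at 4.31, 4.83, 30.3 and 90.7 CPM, and T cell-like cells at 11.4, 13.5, 57.1 and 71.3. In CPM the tumour-like value was thus the lower in 3 of 4 libraries and the higher in mIDH1 replicate 2. Tumour-like cells were far deeper (medians of 26165 to 42148 UMIs against 3933 to 5697), so CPM does not place them against the free-RNA background per cell. Neutrophil RNA sized on S100a8, S100a9, Retnlg, Mmp8, Ly6g, Ltf, Camp and Ngp would supply 9.33, 6.48, 73.5 and 86.3% of the tumour-like Cxcl2 UMIs.

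**Figure D1:**
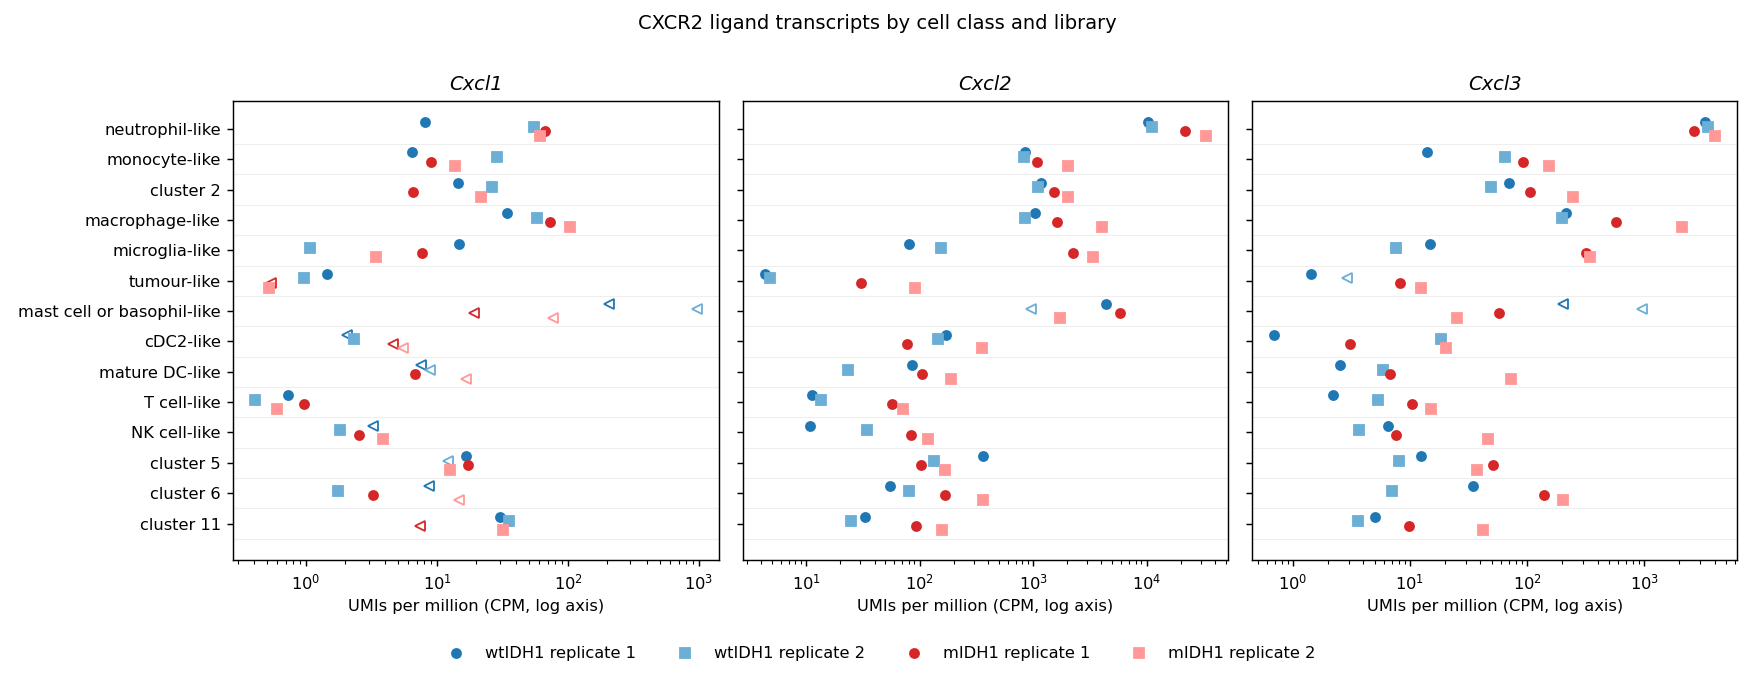
Level of Cxcl1, Cxcl2 and Cxcl3 (UMIs per 1000000 of the class sum, log axis) in 14 cell classes, with 1 point per library; open triangles mark 0 UMIs, drawn at the level of 3 counts. Cxcl2 is highest in neutrophil-like cells in every library, at 10224 to 33458 CPM, while Cxcl1 is read most in macrophage-like cells in 4 of 4 libraries.

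Cxcl3, the close neighbour of Cxcl2 in sequence and function, was likewise highest in neutrophil-like cells, at 3319, 3492, 2647 and 4057 CPM, with no separation of the genotypes. Its second class was macrophage-like cells, at 216, 200, 574 and 2088 CPM, where both mIDH1 libraries were above both wtIDH1 libraries. There its level was higher in the Arg1 cluster 4 (1138, 574, 707 and 2496 CPM) than in cluster 3 (83.0, 153, 97.9 and 108 CPM) in every library. Cluster 4 held 951, 559, 4459 and 8982 of the Cxcl3 UMIs and cluster 3 held 479, 1164, 173 and 80, so in wtIDH1 replicate 2 the larger cluster 3 held more. Within each of these clusters the genotypes overlapped. Few cells held most of it: a single macrophage-like cell had up to 341 Cxcl3 UMIs, and the median cell had 0, 0, 0 and 2. Monocyte-like cells had 14.1, 65.4, 92.2 and 153 CPM and T cell-like cells 2.20, 5.33, 10.3 and 15.1.

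Cxcl1 was the one CXCR2 ligand read most in macrophage-like cells, at 34.5, 57.6, 73.2 and 104 CPM. Neutrophil-like cells had 8.13, 55.1, 66.6 and 61.1 CPM, lower than macrophage-like cells in every library. The value of 8.13 in wtIDH1 replicate 1 lay below the level of 3 counts there, 12.2 CPM. In cluster 4 it was 77.7, 134, 85.8 and 117 CPM and in cluster 3 28.2, 47.8, 28.3 and 37.8, and neither cluster separated the genotypes. Only 12.6, 19.0, 24.4 and 27.7% of macrophage-like cells held a Cxcl1 UMI. Neutrophil cluster 9 had 0 Cxcl1 UMIs in wtIDH1 replicate 1, wtIDH1 replicate 2 and mIDH1 replicate 1, with 20, 26 and 191 cells there. For this cluster 3 counts would be 71.99 and 59.98 CPM in the wtIDH1 libraries, above the level of the whole neutrophil-like class. Those 2 counts of 0 therefore do not show absence. The same limit was 6.89 CPM in mIDH1 replicate 1, below the class level of 66.6.

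Cxcl5 and the CXCR4 ligand Cxcl12 were almost absent from the immune cells. Cxcl5 had 20, 8, 3 and 32 UMIs in the whole libraries and Cxcl12 had 8, 14, 1 and 7. Cluster 11, a mixture in which genes of erythroid, oligodendrocyte and stromal cells stand together, held 39 of the Cxcl5 UMIs in 23 cells, and 21 of those cells also held 2 or more UMIs of mural and fibroblast markers such as Col1a1 and Pdgfrb. It also held 11 of the Cxcl12 UMIs, in 9 cells, all 9 with 2 or more mural and fibroblast UMIs. Macrophage-like cells had 12 and tumour-like cells 11 UMIs of Cxcl5. Of Cxcl12, tumour-like cells held 9 UMIs in 5 cells, and 57.1% of the UMIs of wtIDH1 replicate 2. Of those 5 cells, 3 held 2 or more mural and fibroblast UMIs and 4 held 2 or more endothelial UMIs. Among the 5 tumour-like cells with Cxcl5, 4 held 2 or more mural and fibroblast UMIs and 2 held 2 or more endothelial UMIs. In the whole tumour-like class 101 of 286 cells held 2 or more mural and fibroblast UMIs. No neutrophil-like cell of 3312 held a Cxcl5 UMI, which allows a share of up to 0.0906% of cells with a UMI at this depth, for counting error only. Cells of stroma and vessels were not enriched in these libraries, so the low counts do not measure how much of either ligand the tumours hold.

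Cxcr2 marked the neutrophil-like cells, at 1574, 1679, 990 and 1178 CPM, and 64.1, 66.5, 48.2 and 65.8% of them held a UMI of it. T cell-like cells were at 1.44 to 2.87 CPM with a UMI in at most 1.56% of cells. In CPM the granule-gene cluster 9 had the highest Cxcr2 value in every library (1896, 2939, 2338 and 1731). Cluster 7 had 1768, 1813, 981 and 1631 CPM, and the Cxcl2-rich cluster 8 was lowest (892, 472, 459 and 573). Cluster 9 had only 20 and 26 cells in the wtIDH1 libraries, and in wtIDH1 replicate 1 it lay close to cluster 7. The cluster with the most Cxcl2 thus had the least Cxcr2, while cluster 9, with the highest Cxcr2 CPM, held more Cxcl2 per cell than cluster 7 in 3 of 4 libraries. Even so, 55.6, 58.3, 45.5 and 64.0% of neutrophil-like cells held at least 1 UMI each of Cxcr2 and Cxcl2.

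The class next in Cxcr2 was the small mast cell or basophil-like cluster, at 613 and 585 CPM in the mIDH1 libraries. Microglia-like cells followed in mean level, at 7.42 to 198 CPM over the 4 libraries, and the neutrophil RNA among them is described below. Cluster 2 ran from 25.4 to 52.0 CPM. Macrophage-like cells showed 16.6, 12.6, 26.1 and 61.3 CPM and monocyte-like cells 16.1, 12.3, 65.9 and 56.8. Neutrophil RNA, sized on the same 8 genes, would supply 82.5, 85.6, 92.7 and 41.1% of the Cxcr2 UMIs in macrophage-like cells and 123, 56.4, 76.8 and 67.6% in monocyte-like cells. The share not accounted for was largest in macrophage-like cells of mIDH1 replicate 2. Tumour-like cells had 0, 0, 0.361 and 2.36 CPM.

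Cxcr4 was spread more widely. Neutrophil-like cells had 610, 702, 345 and 301 CPM, both wtIDH1 libraries above both mIDH1 libraries. Macrophage-like cells had 155, 127, 110 and 112 CPM, monocyte-like cells 192, 166, 89.8 and 48.9, NK cell-like cells 130, 127, 122 and 91.2, and T cell-like cells 45.1, 35.7, 32.6 and 35.0. The ranges of monocyte-like, macrophage-like and NK cell-like cells overlapped, and the neutrophil-like range lay above that of macrophage-like cells. Mast cell or basophil-like cells reached 977 CPM in mIDH1 replicate 1 and 280 in mIDH1 replicate 2. In tumour-like cells the level was 34.5 and 53.1 CPM in wtIDH1 but 1.80 and 5.50 in mIDH1, read in 45.8, 51.4, 6.35 and 11.9% of the 24, 35, 126 and 101 cells. That class had fewer than 30 cells in wtIDH1 replicate 1 and was not tested.

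**Figure D2:**
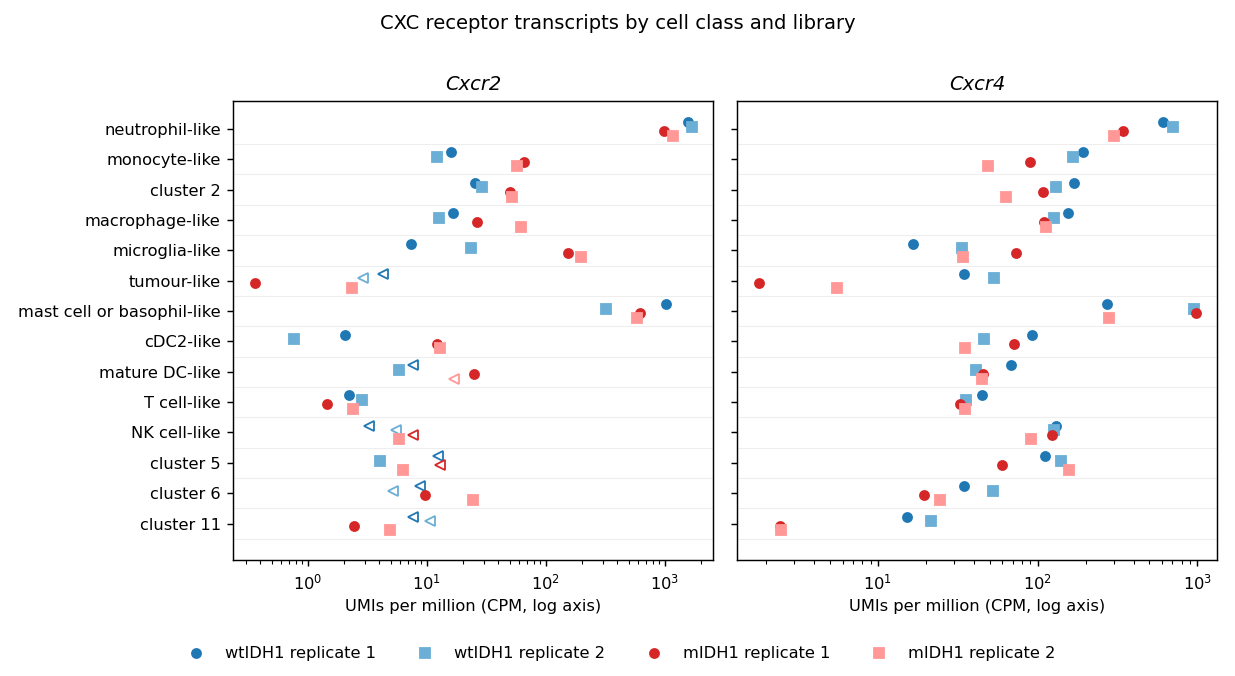
Level of Cxcr2 and Cxcr4 (UMIs per 1000000 of the class sum, log axis) in 14 cell classes, with 1 point per library; open triangles mark 0 UMIs, drawn at the level of 3 counts. Cxcr2 is concentrated in neutrophil-like cells (990 to 1679 CPM) and mast cell or basophil-like cells, whereas Cxcr4 is read in most classes.

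Which cells held the transcripts of a library followed from both level and cell number. Neutrophil-like cells held 14.4, 24.7, 73.1 and 85.4% of all Cxcl2 UMIs, and macrophage-like cells 39.4, 46.1, 17.5 and 10.4%. In wtIDH1 libraries macrophage-like clusters held the largest share of Cxcl2, followed in replicate 1 by cluster 2 (30.9%) and in replicate 2 by neutrophil-like cells. When cells were gated one by one on marker UMIs instead, monocyte-like cells held more of it in wtIDH1 replicate 1 (45.1%) than macrophage-like cells (23.4%). For Cxcl3 the neutrophil-like share was 30.9, 37.6, 55.3 and 64.2%, and for Cxcr4 it was 5.16, 10.5, 34.5 and 61.2%. Macrophage-like clusters held 67.3, 77.2, 74.1 and 57.7% of Cxcl1. Gated macrophage-like cells held 55.2, 52.4, 54.4 and 23.3%, and in mIDH1 replicate 2 that was less than in gated neutrophil-like (26.2%) and monocyte-like (24.0%) cells. The neutrophil-like share of Cxcr2 was 56.8, 70.9, 79.5 and 90.8%, and in gated cells 42.3, 53.9, 67.7 and 81.8%. The mean neutrophil-like share of Cxcl2 was 19.6 ± 7.27% in wtIDH1 and 79.2 ± 8.72% in mIDH1 (SD, n = 2 each), a difference of 59.7 percentage points with a two-sided exact permutation p of 0.333, the smallest that 2 against 2 libraries can give.

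**Figure D3:**
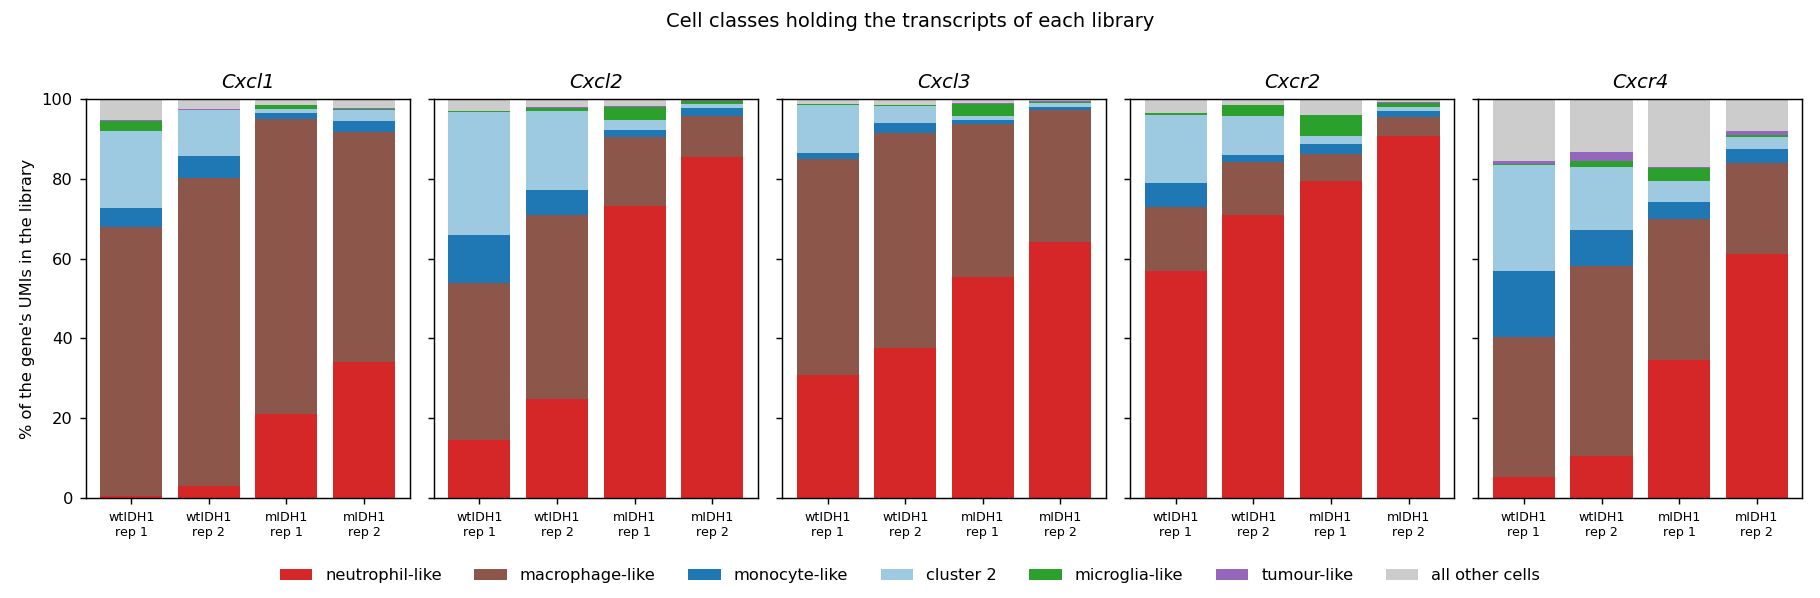
Share of each gene's UMIs in a library (%) that lay in each cell class, as stacked bars for the 4 libraries. The neutrophil-like part of Cxcl2 grows from 14.4 and 24.7% in wtIDH1 to 73.1 and 85.4% in mIDH1, while the macrophage-like clusters hold 57.7 to 77.2% of Cxcl1 (23.3 to 55.2% in cells gated on markers, which are not drawn).

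Genotype comparisons used edgeR's quasi-likelihood test on UMIs summed per class and library, with positive log2 fold changes for higher in mIDH1 and Benjamini-Hochberg adjustment over all genes tested in that class at a threshold of 0.05. Fold changes follow trimmed-mean normalization. With plain library totals the median gene moves by -0.44 in neutrophil-like, -0.24 in monocyte-like, -0.26 in cluster 2, -0.32 in macrophage-like, -0.25 in microglia-like and -0.17 in all cells, so the changes below are relative to the typical gene.

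In neutrophil-like cells Cxcl2 was 10740 ± 729 CPM in wtIDH1 and 27663 ± 8195 in mIDH1 (SD, n = 2 each), a log2 fold change of 1.90 (SE 0.56) that did not pass the test (edgeR, adjusted p = 0.112). It passed with library totals (1.36, edgeR adjusted p = 0.000155), with DESeq2 (1.93, adjusted p = 0.000606) and without the low-count filter (2.05, edgeR adjusted p = 0.00624). It also passed when either mIDH1 library was left out, at 2.30 without replicate 1 and 1.22 without replicate 2, but not without wtIDH1 replicate 1 (1.85) or wtIDH1 replicate 2 (2.02). Cxcl1 differed by 1.36 (SE 0.50, edgeR adjusted p = 0.187), with 0.70 to 3.48 when a library was left out. It passed without the low-count filter (1.503, edgeR adjusted p = 0.0272) and, at 3.48, without wtIDH1 replicate 2. The only wtIDH1 value left in that last fit, 8.13 CPM, lay below the level of 3 counts (12.2 CPM). Cxcl3 differed by 0.51 and passed without mIDH1 replicate 1 (0.91, edgeR adjusted p = 0.00985). Cxcr2 differed by -0.08 and Cxcr4 by -0.56 (SE 0.32, edgeR adjusted p = 0.392). None of the 5 tested genes passed, where 0.641% of all 7493 genes did, 1271 of them at an unadjusted p under 0.05. The lower CPM of Cxcr2 in mIDH1 neutrophil-like cells lay close to the shift of the typical gene. That of Cxcr4 went past it, and with library totals Cxcr4 fell by 1.03 (edgeR adjusted p = 0.0259). Within cluster 7 alone Cxcl2 differed by 1.09 and Cxcr4 by -1.10, and within cluster 8 Cxcl2 differed by 1.22, none past the threshold.

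In macrophage-like cells 4 of the 5 tested genes rose, where 4.98% of all genes did. Cxcl3 rose by 3.02 (SE 0.58, edgeR adjusted p = 0.0312), from 208 ± 11.3 to 1331 ± 1071 CPM (SD, n = 2 each). Cxcl2 rose by 1.93, Cxcr2 by 1.88 and Cxcl1 by 1.25 (edgeR adjusted p = 0.0488, 0.0462 and 0.0476), and Cxcr4 differed by -0.05. These calls rest on mIDH1 replicate 2: without it the log2 fold changes of Cxcl3, Cxcl2, Cxcr2 and Cxcl1 were 1.66, 0.99, 1.05 and 0.87, none past the threshold, and 1 gene in all was called. Within cluster 3 the changes were 0.046 for Cxcl3, 0.57 for Cxcl2, 2.09 for Cxcr2 and -0.016 for Cxcl1, and within cluster 4 they were 1.14, 1.15, 0.78 and 0.14 in the same order, and none of these 4 genes was called in either cluster. The 14 neutrophil markers summed to 791, 648, 1507 and 3172 CPM in macrophage-like cells, with 2, 1, 0 and 0 of them at 0 UMIs. After subtraction of neutrophil RNA, Cxcl3 was still called, while Cxcl2 (1.73, edgeR adjusted p = 0.0862) and Cxcr2 (3.32, edgeR adjusted p = 0.128) were not.

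**Figure D4:**
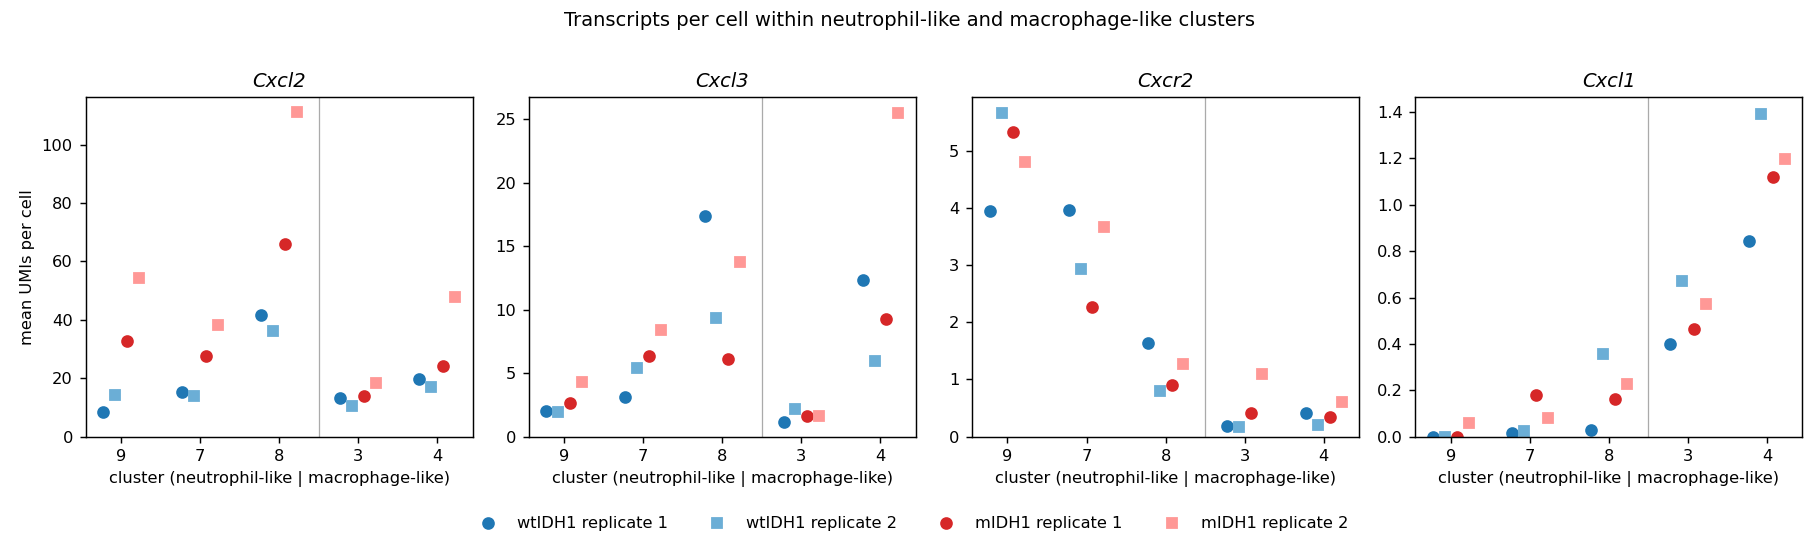
Mean UMIs per cell of Cxcl2, Cxcl3, Cxcr2 and Cxcl1 in the neutrophil-like clusters 9, 7 and 8 and the macrophage-like clusters 3 and 4, with 1 point per library. Cluster 8 has the most Cxcl2 and the least Cxcr2 of the neutrophil-like clusters in all 4 libraries, and Cxcl3 per macrophage-like cell is higher in cluster 4 than in cluster 3.

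In monocyte-like cells, where 7.02% of all genes were called, Cxcr2 rose by 2.26 (SE 0.28, edgeR adjusted p = 0.00216) and Cxcl3 by 1.99 (SE 0.49, edgeR adjusted p = 0.0312), and Cxcr4 fell by 1.19 (SE 0.27, edgeR adjusted p = 0.0236). Cxcl2 differed by 1.13 (SE 0.32, edgeR adjusted p = 0.0521), with 0.50 to 1.59 when a library was left out. It passed in 6 of 14 alternatives, among them DESeq2 (1.15, adjusted p = 0.00758), gated cells (1.70, edgeR adjusted p = 0.00421) and the fit without mIDH1 replicate 1 (1.59, edgeR adjusted p = 0.000495), and was at -0.36 after subtraction of neutrophil RNA. Cxcr4 fell from 179 ± 18.4 to 69.4 ± 28.9 CPM (SD, n = 2 each). Its call was lost without wtIDH1 replicate 1 (-1.03), without wtIDH1 replicate 2 (-1.33) and without mIDH1 replicate 2 (-0.88), but not without mIDH1 replicate 1. The Cxcl3 call was lost without wtIDH1 replicate 1 (1.18) and without mIDH1 replicate 2 (1.48), while that of Cxcr2 held without each library in turn. The neutrophil markers summed to 973, 613, 2777 and 4541 CPM in monocyte-like cells (1, 3, 0 and 1 of 14 at 0 UMIs). After subtraction of neutrophil RNA Cxcl3 was at -0.70 and no longer called, while Cxcr2 and Cxcr4 still were. In wtIDH1 replicate 1 the sized neutrophil RNA exceeded the Cxcr2 UMIs observed, and the subtraction left none there. The Cxcr2 call after subtraction is therefore no check of its rise. In cluster 2, where 2.61% of all genes rose, Cxcl3 (1.80, edgeR adjusted p = 0.0244) and Cxcr2 (1.15, edgeR adjusted p = 0.0311) did. Both calls were lost after the subtraction and without mIDH1 replicate 2 (edgeR adjusted p = 0.141 and 0.124), and that of Cxcr2 also without wtIDH1 replicate 1 (1.06). There the neutrophil markers summed to 1286, 1559, 4569 and 2825 CPM (3, 3, 2 and 2 at 0 UMIs).

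In microglia-like cells Cxcl3 rose by 5.22, Cxcl2 by 4.86 and Cxcr2 by 3.61 (edgeR adjusted p = 1.39e-07, 3.49e-07 and 1.27e-05), where 2.18% of all genes rose. Cxcl2 was 79.8 and 154 CPM in wtIDH1 and 2252 and 3345 in mIDH1. The neutrophil markers moved with it, from 258 and 537 to 6762 and 9905 CPM (7, 4, 0 and 4 of 14 at 0 UMIs), and neutrophil RNA sized on the check genes came to 0.0965, 0.375, 12.6 and 7.10% of the class's UMIs. After its subtraction Cxcl2 (2.79, edgeR adjusted p = 0.502) and Cxcr2 (2.72, edgeR adjusted p = 0.170) were no longer called, and Cxcl3 had too few counts left to be fitted. Most of the Cxcl2 lay in cluster 17, with 2892 and 6556 CPM in the mIDH1 libraries, from 89 and 15 cells. In cluster 14 alone it was 35.6, 33.1, 155 and 235 CPM and rose by 2.59 (edgeR adjusted p = 2.27e-05), with under 1 UMI per cell in every library. Cxcl2 in T cell-like cells, the free-RNA background, was also higher in mIDH1 (11.4, 13.5, 57.1 and 71.3 CPM), and whether the rise in cluster 14 differs from that was not tested.

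Summed over all cells of a library, Cxcl2 was 807, 760, 2845 and 8948 CPM, Cxcl3 was 122, 155, 455 and 1443, and Cxcr2 was 31.5, 39.5, 118 and 296, each with both mIDH1 libraries above both wtIDH1 ones. They rose by 3.17, 3.04 and 2.80 (edgeR adjusted p = 0.0353, 0.0374 and 0.0315), where 8.86% of all genes did, and the calls were lost without mIDH1 replicate 2 (1.89, 1.75 and 1.77). Cxcl2 and Cxcl3 also lost them without either wtIDH1 library (edgeR adjusted p = 0.0803 and 0.0779 without replicate 1, 0.0769 and 0.0535 without replicate 2) and Cxcr2 without wtIDH1 replicate 1 (2.65). Cxcl1 (0.82, edgeR adjusted p = 0.170), Cxcl5 (0.65) and Cxcr4 (-0.05) did not pass, and Cxcl12 was too low to be tested. These sums change with the number of neutrophil-like cells as well as with their RNA. Without neutrophil-like cells Cxcl2 was 698, 582, 847 and 1693 CPM.

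**Figure D5:**
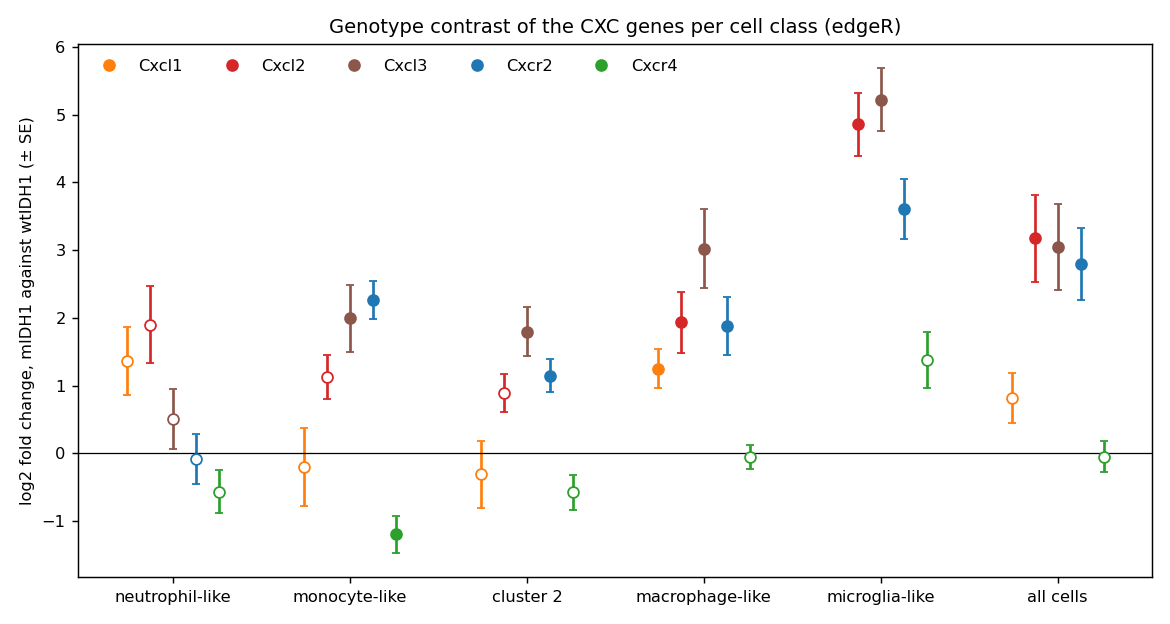
Log2 fold change of mIDH1 against wtIDH1 (edgeR, error bars 1 SE) for 5 genes in 5 cell classes and in all cells; filled points passed an adjusted p of 0.05 and open ones did not. Neutrophil-like cells have no filled point, and Cxcl3 runs from 0.51 there to 3.02 in macrophage-like and 5.22 in microglia-like cells.

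A model over both classes, with a term for each library, asked whether genotype acted on a gene to a different extent in neutrophil-like than in macrophage-like cells. It called 1.29% of 11038 genes, and 2 of the 5 tested here. The contrast of Cxcl3 was smaller in neutrophil-like cells by -2.18 (SE 0.33, edgeR adjusted p = 1.24e-05) and that of Cxcr2 by -1.79 (SE 0.32, edgeR adjusted p = 0.000315). For Cxcl2 the difference was 0.15 (SE 0.37), for Cxcl1 0.34 (SE 0.44) and for Cxcr4 -0.42 (SE 0.30), none past the threshold. The Cxcr2 call was lost without wtIDH1 replicate 2 (-1.33), and both calls were lost when RNA of other cells was subtracted from the sums (-2.20 for Cxcl3 and -2.25 for Cxcr2), a setting in which 5 genes were called.

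Among 16 other CXC ligands and receptors, 6 were tested in neutrophil-like cells and 1 passed, where 0.641% of all genes did. Cxcl16, a chemokine made in membrane-bound form that binds CXCR6, fell by 2.76 (edgeR adjusted p = 0.0103) from 191 and 139 to 29.9 and 8.96 CPM. The 12 macrophage markers in these cells summed to 3323, 4176, 3601 and 1124 CPM (1, 0, 0 and 0 of them at 0 UMIs), and RNA of other cells came to at most 28.1, 22.3, 19.6 and 5.81% of the UMIs. After its subtraction the call was lost (edgeR adjusted p = 0.160). Cxcl16 also fell in monocyte-like cells (by 1.34, from 440 and 253 to 148 and 94.0 CPM), a call lost without wtIDH1 replicate 1 (-0.83) or mIDH1 replicate 2 (-1.12). The interferon-induced CXCR3 ligand Cxcl9 rose in monocyte-like cells (2.06) and in cluster 2 (2.08), the 1 rise of this list among 5 tested in each, and stayed called without each library in turn and after the subtraction.

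In macrophage-like cells 2 of 9 tested genes of this list rose and 0 fell, where 4.98% of all genes rose: Ackr3, the scavenging receptor of CXCL12 (5.22, with 0, 0.582, 9.04 and 11.8 CPM), and Pf4, also called CXCL4 (1.48). The list's median log2 fold change there was 1.21, against -0.03 for all genes. Of 18 receptors and adhesion genes of other neutrophil attractants, 5 rose in macrophage-like cells and 0 fell, with a median of 0.50. Among them were Ltb4r1, the leukotriene B4 receptor (2.37), Fpr1, a receptor for formylated bacterial peptides (1.70), and C5ar1, the receptor of complement C5a (1.10). Of 24 inducers and regulators of these chemokine transcripts, 3 of 21 tested rose there: Tlr4, the endotoxin receptor (1.02), Il1rap, the accessory chain of the interleukin-1 receptor (1.41), and Fosl1, an AP-1 subunit (2.67). None of these 8 named genes passed without mIDH1 replicate 2, and Fpr1 also missed the threshold without mIDH1 replicate 1 (1.61). After the subtraction of neutrophil RNA, Il1rap was no longer called (1.22, edgeR adjusted p = 0.0852), and the other 7 were. Within cluster 3 alone Pf4 was at -0.93 and Tlr4 at -0.15, while the other named genes fitted there kept their sign. Pf4 is among the genes that lead cluster 4, which held most macrophage-like cells in mIDH1 and few in wtIDH1. Whether the rises in the class differ from this change of clusters was not tested.

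In neutrophil-like cells all 18 attractant receptor and adhesion genes were tested and 0 passed, where 0.641% of all genes did. Their median was 0.43 against 0.00 for all genes. Of the inducers 21 were tested there and 1 passed, beside the same 0.641% of all genes. The alarmin gene Il1a rose by 1.89 (edgeR adjusted p = 0.0387), with 89.5 and 148 CPM in wtIDH1 and 349 and 302 in mIDH1. Its call was lost without wtIDH1 replicate 1 (1.61) and after the subtraction of other RNA (1.73, edgeR adjusted p = 0.268). Ltb4r1 was the 1 riser among 18 tested genes of its list in monocyte-like cells (1.45, lost without wtIDH1 replicate 1 at 1.13), where 394 of 7960 genes rose. It also rose in cluster 2 (1.59), where 2 of 18 listed genes and 2.61% of all genes rose. In microglia-like cells it rose by 3.72, where 5 of 16 listed genes and 2.18% of all genes rose. The call in microglia-like cells was lost after the subtraction (3.06, edgeR adjusted p = 0.200), and the calls in monocyte-like cells and cluster 2 were not.

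Of 19 genes of signalling below CXC receptors, 0 passed in neutrophil-like cells, where 0.641% of all genes did. Rgs2 and Rgs1, which speed the shutting off of G proteins, fell in monocyte-like cells (by 1.07 and 1.54), 2 of 19 tested where 165 of 7960 genes fell. Rgs2 fell in macrophage-like cells (by 1.02) and Rgs1 in cluster 2 (by 1.06), each the 1 fall among 18 tested. In these 2 classes 145 of 10967 and 63 of 8902 genes fell. All 4 of these calls were lost without mIDH1 replicate 2, those of Rgs1 and of monocyte-like Rgs2 also without wtIDH1 replicate 1, and that of monocyte-like Rgs2 also without wtIDH1 replicate 2. In monocyte-like cells the inducers Il1rap (1.22) and Tnfaip3, a brake on NF-kB (-0.94), passed, 1 rise and 1 fall of 20 tested. There 394 of 7960 genes rose and 165 fell. The Il1rap call held only without wtIDH1 replicate 2 and that of Tnfaip3 only without mIDH1 replicate 1 among the fits with a library left out. The beta-arrestin gene Arrb1, whose product uncouples receptors, rose in macrophage-like cells (0.77), the 1 rise among 18 tested where 4.98% of all genes rose. Its call was lost without wtIDH1 replicate 2 (0.63) or mIDH1 replicate 2 (0.67).

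Over 44 class and library sums of 11 classes, the genes whose log2 levels ran most like Cxcl2 were Ier3, Cd14 and Ptgs2 (Pearson's r of 0.93, 0.93 and 0.92), with the sums of 1 library sharing depth and free RNA. For Cxcr2 they were the neutrophil markers S100a9, Hdc and S100a8 (0.93, 0.92 and 0.91), and for Cxcl3 they were Clec4d, Cxcl2 and S100a9 (0.89, 0.89 and 0.88). Cxcl1 had no close match (Inhba at 0.73 was the highest of 10681 genes), Cxcr4 ran with Btg1, Pim1 and Txnip (0.88, 0.86 and 0.85), and Cxcl5 with the matrix genes Lama4, Mfap5 and Cthrc1 (0.94, 0.93 and 0.93).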

How the data were processed

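The deposited values are raw UMI counts per gene and barcode, 1 matrix per library, which the authors made with Cell Ranger 3.1 (alignment to mm10 by STAR), per the labels' protocols, while the file header gives software version 3.0.0. The labels' protocols also mention an aggregation to equal depth, of which the unequal totals show no sign. Cells with 200 or more genes and at most 10% mitochondrial UMIs were kept. Scrublet's automatic threshold marked under 0.5% of cells, so the highest scores were removed at the expected rate (79, 75, 114 and 104 cells). Clustering used scanpy 1.11.5 (1995 variable genes, the 7 genes left out, Leiden resolution 1.0). Clusters were named from fixed markers; cells gated one by one on marker UMIs were an alternative. Class sums were tested with edgeR 4.0.16 in R 4.3.3 (mIDH1 against wtIDH1, filterByExpr, TMM) where every library had 30 or more cells, with DESeq2 1.42.0 as an alternative, and were tested on simulated data. CPM are UMIs per 1000000 of the class sum. Thinning drew 1000 UMIs from each cell that had 1000 or more and left the other cells out. Shares of UMIs carry counting error only. Free RNA was sized on 8 neutrophil genes or 5 macrophage genes. Likeness compared log2(CPM + 1) over genes with 20 or more CPM in a sum. All 7 genes were measured in every class, though not every value is printed. Genes named from the 4 fixed lists are among the up to 4 per list and class with the lowest p, and not all of those are named. The genes and lists were chosen with earlier results of these data known. Positions are from GENCODE M21 and promoters from RefSeq. Python 3.11.15 ran scipy 1.17.1 and igraph 0.11.9.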

Additional observations from a re-analysis of the deposited data

Results flagged for a closer look

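The genotype contrast of 2 of the genes differed between neutrophil-like and macrophage-like cells by a test of the difference itself. For Cxcl3 the contrast in neutrophil-like minus that in macrophage-like cells was -2.18 on the log2 scale (SE 0.33), beside contrasts of 0.51 and 3.02 in the 2 classes fitted alone. For Cxcr2 it was -1.79 (SE 0.32), beside -0.08 and 1.88. Neutrophil RNA sized on the check genes would supply 82.5, 85.6, 92.7 and 41.1% of the Cxcr2 UMIs in macrophage-like cells and 13.4, 11.2, 11.3 and 4.16% of the Cxcl3 UMIs there. Both calls were lost when RNA of other cells was subtracted from the sums, and that of Cxcr2 also without wtIDH1 replicate 2 (-1.33).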

How the results depend on the processing

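The counts of genes called depended strongly on the setting, and the cause was not tested. In neutrophil-like cells 48 became 264 with library totals, 151 with DESeq2, 358 without the low-count filter, 251 with the replicate block, 81 at 5% mitochondrial UMIs, 7 in gated cells, 0 after subtraction of other RNA (829 at an unadjusted p under 0.05 in edgeR), 1 in cluster 7, 3 in cluster 8 and 64 to 496 with a library left out. Monocyte-like cells had 559, against 988 without the filter, 1080 with the block, 1481 gated and 110 to 991 with a library left out. Macrophage-like cells had 691, against 1965, 1241 at 5%, 1058 gated, 173 in cluster 3, 5 in cluster 4 and 1 to 1264. Microglia-like cells had 186, against 120 with DESeq2, 335 without the filter, 116 at 5%, 94 gated, 18 subtracted and 99 to 367. Cluster 2 had 295, against 717, 1065 with the block and 69 to 571, all cells 1931, against 2946 with DESeq2 and 38 to 2604, and the difference between classes 142, against 83 at 5%, 5 subtracted and 45 to 237. Log2 fold changes past the threshold at first and not under an alternative were, with library totals, 1.56 (Cxcr2) and 0.93 (Cxcl1) in macrophage-like cells and 0.91 (Cxcr2) in cluster 2, with DESeq2, 1.91 (monocyte-like Cxcl3) and 1.96 (macrophage-like Cxcl2), with the replicate block 1.76 (macrophage-like Cxcl2), at 5% mitochondrial UMIs 1.69 (monocyte-like Cxcl3), without shared barcodes 1.28 (macrophage-like Cxcl1), and with cluster 2 joined -0.82 (monocyte-like Cxcr4). After subtraction they were 3.32 (Cxcr2) and 1.73 (Cxcl2) in macrophage-like, 2.72 and 2.79 in microglia-like cells, 0.14 (Cxcr2) and 1.43 (Cxcl3) in cluster 2, and -2.25 (Cxcr2) and -2.20 (Cxcl3) for the difference between classes. In cluster 3 alone they were 2.09 (Cxcr2), 0.046 (Cxcl3), -0.016 (Cxcl1) and 0.57 (Cxcl2), and in cluster 4 alone 0.78, 1.14, 0.14 and 1.15. With a library left out the ranges were, in monocyte-like cells, -1.56 to -0.88 (Cxcr4) and 1.18 to 3.31 (Cxcl3), in macrophage-like cells 1.05 to 2.48 (Cxcr2), 1.66 to 3.73 (Cxcl3), 0.87 to 1.64 (Cxcl1) and 0.99 to 2.52 (Cxcl2), in cluster 2 1.06 to 1.27 (Cxcr2) and 1.004 to 2.35 (Cxcl3), in all cells 1.77 to 3.38 (Cxcr2), 1.75 to 3.70 (Cxcl3) and 1.89 to 3.83 (Cxcl2), and for the difference -2.04 to -1.33 (Cxcr2). Signs turned, with none past the threshold, for neutrophil-like Cxcr2 (0.062 without the filter, -0.52 to 0.19 with a library left out), Cxcl3 (-0.029 with library totals, -0.37 in cluster 8, -0.17 to 0.91) and Cxcl1 (-0.085 in cluster 8), for monocyte-like Cxcl3 (-0.70) and Cxcl2 (-0.36) and cluster 2 Cxcl2 (-0.24) after subtraction, for monocyte-like Cxcl1 (1.01 gated, -1.04 to 1.01), macrophage-like Cxcr4 (0.021 with doublets kept, 0.14 in cluster 3, -0.21 to 0.13), cluster 2 Cxcl1 (-1.42 to 0.45), all-cell Cxcr4 (-0.34 to 0.19) and Cxcl5 (-0.066 at 5%, -2.45 to 1.65), and for the difference in Cxcr4 (0.11 gated, -0.58 to 0.032), Cxcl1 (-0.036 to 2.10) and Cxcl2 (-0.12 with library totals). Among listed genes called at first, signs turned in macrophage-like cells for Tlr4 (-0.15), Pf4 (-0.93) and Arrb1 (-0.19) in cluster 3 and Arrb1 (-0.10) in cluster 4, and in microglia-like cells for Ccr1 (-0.86 after subtraction, -0.46 in cluster 14). The gain in the neutrophil-like share of Cxcl2 was 48.4 points in gated cells. Replicate numbers appear in both genotypes, and the labels do not say that they pair libraries. The deviations of same-numbered libraries correlated at 0.01 in neutrophil-like, 0.05 in monocyte-like, -0.28 in macrophage-like, -0.24 in microglia-like and -0.01 in all cells. With 2 libraries per genotype these values cannot exclude a pairing or a shared batch. Tests left with 1 library in a genotype assume that it varies like the others. Tumour-like cells were not tested under any setting, with 24 cells in wtIDH1 replicate 1. The settings without shared barcodes, with cluster 2 joined, for cluster 2 itself, for single clusters and for subtraction in both classes were chosen after seeing the data.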
